A study of Mus musculus with 2 samples.

Results

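The Toll-like receptors were followed across the splenic cells of a mouse with sickle cell disease (SCD) and a wild-type mouse by droplet single-cell RNA sequencing. The members were the 9 receptor genes Tlr2, Tlr3, Tlr4, Tlr7, Tlr8, Tlr9, Tlr11, Tlr12 and Tlr13, found by gene symbol among the 26124 genes of both count matrices. Both mice were 12 to 16 weeks old and untreated, both were homozygous for the targeted alpha-globin allele Hbatm1Paz, and both carried the human sickle globin transgene Tg(HBA-HBBs)41Paz. The SCD mouse was homozygous for that transgene and for Hbbtm1Tow and had sickling red cells. The wild-type mouse, a control littermate, had 1 copy of the transgene (hemizygous) and was heterozygous for Hbbtm1Tow, so it was not free of sickle globin, and it did not sickle. Spleen cells had been depleted of mature red cells and enriched for dendritic cells (DCs) by removing other cells with antibody-coated beads. There was 1 library, from 1 mouse, in each group, so no difference could be tested between animals and the intervals below cover counting error only.

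Toll-like receptors are membrane proteins of innate immune cells that bind microbial or endogenous molecules through a leucine-rich outer part and signal through an inner TIR domain to the adaptors Myd88 and Ticam1. Tlr2 and Tlr4 act mainly at the cell surface, where Tlr2 pairs with Tlr1 or Tlr6 to bind lipoproteins and Tlr4 binds lipopolysaccharide with Ly96 and Cd14. Tlr4 has also been proposed as a sensor of heme, which is released in hemolytic disease. Tlr3, Tlr7, Tlr8, Tlr9 and Tlr13 bind nucleic acids inside endosomes (double-stranded RNA, single-stranded RNA, CpG DNA and bacterial ribosomal RNA), and Tlr11 and Tlr12 bind profilin of the parasite Toxoplasma. The endosomal receptors depend on the chaperone Unc93b1 for transport and on proteases such as cathepsins for processing.

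Cells were kept if they had 500 to 5000 genes and if mitochondrial genes took under 15% and ribosomal genes under 30% of their unique molecular identifiers (UMIs). By these limits 9423 of 10845 wild-type and 10635 of 13447 SCD cells remained, with 60845405 and 99608356 UMIs and a median of 4884 and 8282 per cell. Cell types were rebuilt from marker genes over clusters made without the 9 receptors. Neutrophil-like cells were the largest class in both libraries (4372 wild-type and 7199 SCD cells, 46.4% and 67.7%), although the cells had been enriched for DCs. Conventional DC-like cells made up 28.1% (2645 cells) and 6.78% (721 cells), plasmacytoid DC-like cells 8.64% (814) and 5.76% (613), monocyte-like cells 11.3% (1066) and 12.6% (1342), and red pulp macrophage-like cells 3.07% (289) and 1.47% (156). The 22 barcodes found in both libraries after filtering were left in. The Y-linked gene Ddx3y was detected in both libraries (92.0 and 47.9 CPM, that is UMIs per 1000000 UMIs of the cells summed), which matters for Tlr7, Tlr8 and Tlr13 because these lie on the X chromosome. Summed levels of marker lists differed between the libraries within several classes and are given beside the results they accompany.

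In the GRCm38 build of the mouse genome, with GENCODE gene models, Tlr2 (chr3:83836272-83841767, minus strand), Tlr3 (chr8:45395665-45411080, minus), Tlr4 (chr4:66827584-66930284, plus), Tlr9 (chr9:106222598-106226883, plus), Tlr11 (chr14:50357914-50363663, plus) and Tlr12 (chr4:128615443-128618619, minus) are protein-coding genes on autosomes. Tlr7 (chrX:167304929-167330558, minus), Tlr8 (chrX:167242696-167264329, minus) and Tlr13 (chrX:106143204-106160493, plus) are X-linked, and Tlr7 and Tlr8 are neighbours with 40599 bases between them. Tlr3 was the only member with an overlapping gene model (Gm45542, on the opposite strand).

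To show the sequence beside the expression patterns of these receptors, the 250 bases before the RefSeq gene start (GRCm38.p6, gene strand, 5′ to 3′) are given for Tlr2 and Tlr13, whose UMIs came mostly from neutrophils and monocytes, and for Tlr3, Tlr11 and Tlr12, which were highest in conventional type 1 DCs (cDC1). RefSeq starts can differ from the GENCODE ends above. Capitals mark matches to AGGAAG (an ETS core), GAAA followed after any 2 bases by GAAA (an interferon response element), GGGAA followed after any 3 bases by CC (an NF-kB element), TTGCNNAA (a C/EBP element) or TGANTCA (an AP-1 element), searched on both strands.
Tlr2: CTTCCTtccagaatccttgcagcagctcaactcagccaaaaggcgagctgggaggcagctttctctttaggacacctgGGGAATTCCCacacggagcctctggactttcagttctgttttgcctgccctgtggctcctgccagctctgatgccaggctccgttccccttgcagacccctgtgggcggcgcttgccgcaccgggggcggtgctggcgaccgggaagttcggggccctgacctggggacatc
Tlr13: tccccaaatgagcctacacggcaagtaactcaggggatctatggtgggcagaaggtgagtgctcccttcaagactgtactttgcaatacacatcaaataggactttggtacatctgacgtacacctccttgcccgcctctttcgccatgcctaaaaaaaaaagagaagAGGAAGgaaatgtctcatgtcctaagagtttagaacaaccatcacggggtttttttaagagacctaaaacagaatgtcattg
Tlr3: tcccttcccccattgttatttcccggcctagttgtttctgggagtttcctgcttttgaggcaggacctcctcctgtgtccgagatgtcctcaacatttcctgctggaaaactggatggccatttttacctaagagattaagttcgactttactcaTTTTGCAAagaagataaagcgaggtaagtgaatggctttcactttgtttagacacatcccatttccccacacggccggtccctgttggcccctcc
Tlr11: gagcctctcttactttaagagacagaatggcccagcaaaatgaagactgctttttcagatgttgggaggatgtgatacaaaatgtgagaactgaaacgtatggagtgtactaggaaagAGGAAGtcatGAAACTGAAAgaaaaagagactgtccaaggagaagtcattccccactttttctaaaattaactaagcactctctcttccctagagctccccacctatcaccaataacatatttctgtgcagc
Tlr12: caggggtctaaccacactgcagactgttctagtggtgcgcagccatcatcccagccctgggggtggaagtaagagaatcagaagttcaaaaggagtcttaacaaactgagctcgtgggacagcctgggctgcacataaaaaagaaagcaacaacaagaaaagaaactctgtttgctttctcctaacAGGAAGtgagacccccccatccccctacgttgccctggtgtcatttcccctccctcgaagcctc
These windows are chr3:83841609-83841858 for Tlr2, chrX:106143025-106143274 for Tlr13, chr8:45410381-45410630 for Tlr3, chr14:50357664-50357913 for Tlr11 and chr4:128618620-128618869 for Tlr12. The ETS core was present in 5 of the 7 members with a RefSeq promoter (Tlr2, Tlr9, Tlr11, Tlr12 and Tlr13) against 29.5% of 32851 promoters. The NF-kB letters were in Tlr2 alone (4.94% of promoters), the interferon response letters in Tlr11 alone (2.98%), the AP-1 letters in Tlr9 alone (6.75%) and the C/EBP letters in Tlr3 and Tlr8 (9.56%). The matches of different motifs did not overlap in the 5 sequences shown. A match is a description of letters only.

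The surface receptor Tlr2 had its highest levels in neutrophils, red pulp macrophages and classical monocytes in the wild-type library and in monocytes and red pulp macrophages in the SCD library. In the wild-type library the Tlr2 level was 62.7 CPM in neutrophils, 57.3 in red pulp macrophages, 53.8 in classical monocytes, 34.5 in non-classical monocytes, 23.1 in mature DCs, 20.1 in cDC1, 14.8 in conventional type 2 DCs (cDC2) and 11.9 in plasmacytoid DCs. The only step in this order at which neighbouring intervals did not overlap lay between classical (48.3 to 59.8) and non-classical monocytes (28.2 to 41.7). In the SCD library the Tlr2 order was different. Neutrophils took rank 4 with 24.5 CPM (interval 23.3 to 25.8), below non-classical monocytes (72.8), red pulp macrophages (69.1) and classical monocytes (57.6), and the intervals on either side of neutrophils in this order did not overlap theirs.

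Tlr4 had its highest level in red pulp macrophages, the cells that clear senescent erythrocytes and recycle heme iron. There it reached 118 CPM in the wild-type library (74 UMIs, interval 92.5 to 148) and 112 CPM in the SCD library (47 UMIs, 82.2 to 149). The ratio of SCD to wild-type was 0.950 (0.645 to 1.39), so a difference was not detectable at this depth. The median red pulp macrophage held 1332 and 1543.5 UMIs before any thinning. Neutrophils took rank 2 in the wild-type library with 28.4 CPM and rank 4 in the SCD library with 9.70 CPM. Both monocyte subtypes lay between 12.05 and 16.09 CPM in either library, and the 3 conventional DC subtypes and plasmacytoid DCs lay at or under 4.05 CPM. With the largest number of cells, neutrophils supplied 60.5% of all wild-type and 64.1% of all SCD Tlr4 UMIs, against 9.85% and 5.14% from red pulp macrophages.

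**Figure D1:**
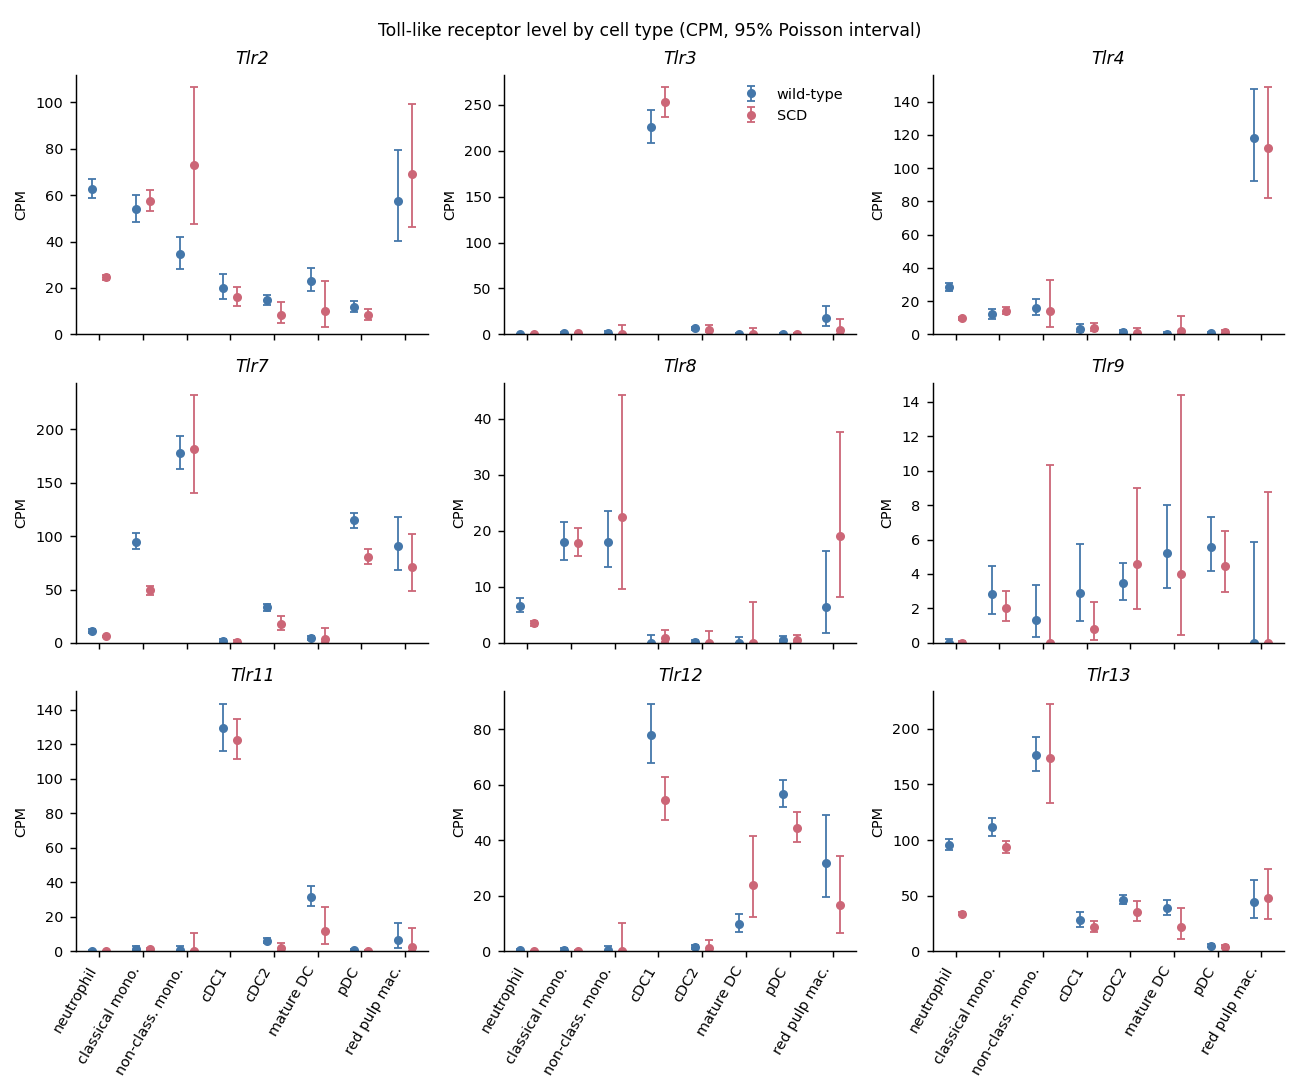
Level of each Toll-like receptor (CPM, linear axes that differ between panels) in 8 cell types of the wild-type (blue) and SCD (red) library, with exact Poisson 95% intervals. Tlr3, Tlr11 and Tlr12 stand highest in cDC1 (226 and 253 CPM for Tlr3), Tlr4 in red pulp macrophages (118 and 112 CPM), and Tlr7 and Tlr13 in non-classical monocytes.

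Among the endosomal receptors, Tlr7 and Tlr13 had their highest levels in non-classical monocytes. Tlr7, the receptor for single-stranded RNA, was at 178 and 182 CPM in them (wild-type and SCD), followed by plasmacytoid DCs (115 and 80.7), and it was nearly undetected in cDC1 (4 and 3 UMIs). Tlr13 was at 177 and 174 CPM in non-classical monocytes, then in classical monocytes (112 and 93.6), and, among the plotted cell types, lowest in plasmacytoid DCs (4.72 and 4.13). These levels of both genes in non-classical monocytes differed between libraries by less than counting error, with ratios of 1.02 (0.778 to 1.33) and 0.983 (0.743 to 1.28) on 54 SCD cells. Of the Tlr8 UMIs, 56.0% came from monocytes and 33.5% from neutrophils in the wild-type library (52.5% and 40.2% in SCD), and Tlr8 stood at 18.1 and 22.4 CPM in non-classical and 18.0 and 17.8 CPM in classical monocytes. The intervals of the monocyte subtypes overlapped within each library. Tlr9, the CpG DNA receptor, was the sparsest member with 161 wild-type and 80 SCD UMIs over all kept cells. Its highest level was 5.58 CPM (52 UMIs) in wild-type plasmacytoid DCs, the intervals of the neighbouring DC and classical monocyte levels overlapped in that library, and neutrophils had 0 and 1 UMI, which allows a wild-type level of up to 0.187 CPM at the floor of 3 counts.

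The remaining 3 members were highest in cDC1. Tlr3, the double-stranded RNA receptor, reached 226 CPM in wild-type cDC1 (619 UMIs, 208 to 244) and 253 CPM in SCD cDC1 (935 UMIs, 237 to 269), and the next class was at 17.5 CPM in the wild-type (red pulp macrophages, 11 UMIs) and 5.13 CPM in the SCD library (cDC2, 9 UMIs). The 172 and 247 cDC1 cells thereby held 81.6% and 93.5% of all Tlr3 UMIs. Tlr11 was highest in the same cells at 129 and 123 CPM, with mature DCs next at 31.5 and 11.9 CPM. Tlr12 was shared between cDC1 (78.0 and 54.6 CPM) and plasmacytoid DCs (56.8 and 44.5 CPM), and plasmacytoid DCs held 62.3% and 51.2% of its UMIs. The cDC1 and plasmacytoid DC levels of Tlr12 did not overlap in the wild-type library and did in the SCD library. Conventional type 1 DCs are known for cross-presenting antigen to CD8 T cells.

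A background for these levels was taken from the erythroid-like cells (55 wild-type and 51 SCD), which should lack the receptors and held 433092 and 197607 UMIs. The neutrophil marker list stood at 12200 and 16440 CPM in them. Tlr2 was at 18.5 CPM (8 UMIs, interval 7.975 to 36.4) and 25.3 CPM (5 UMIs, 8.22 to 59.05) there, and Tlr13 at 20.8 CPM (9 UMIs, 9.50 to 39.45) and 30.4 CPM (6 UMIs, 11.1 to 66.1). Tlr4 was at 9.24 CPM (4 UMIs, 2.52 to 23.65) and 5.06 CPM (1 UMI, 0.128 to 28.2), and Tlr7 at 11.5 CPM (5 UMIs, 3.75 to 26.9) and 10.1 CPM (2 UMIs, 1.23 to 36.6). The other members had 0 to 2 UMIs, and the upper bounds were 16.7 and 18.7 CPM for Tlr11 and 12.9 and 28.2 CPM for Tlr8. The bounds rest on few cells and are wide, so a level under them is not thereby shown to be absent. Some members were rarer in classes with more UMIs. Tlr9, for example, had 0 UMIs among 16006756 in wild-type neutrophils and 52 among 9319938 in wild-type plasmacytoid DCs. Levels that do not pass the upper bounds cannot be told from this erythroid background on so few cells. These include the Tlr2 levels of the 3 conventional DC subtypes and plasmacytoid DCs in both libraries, the SCD neutrophil levels of Tlr2, Tlr4 and Tlr13, the levels of Tlr7 and Tlr8 in neutrophils and in each of their granule ranges (below) in both libraries, the Tlr4 levels of all monocytes and DCs, and every level of Tlr9, so their places in the orders were not read as expression. Among the plotted cell types, above the bounds in both libraries were Tlr2 and Tlr4 in red pulp macrophages and Tlr13 in both monocyte subtypes. Tlr7 was above them in both monocyte subtypes, plasmacytoid DCs and red pulp macrophages. So were Tlr3 and Tlr11 in cDC1, and Tlr12 in cDC1, plasmacytoid DCs and mature DCs (38 and 12 UMIs in the last). In the wild-type library the levels of Tlr2, Tlr4 and Tlr13 over all neutrophils were above them as well, but not those of every granule range (below). Of the ratios past 2-fold given below, those of Tlr11 in monocytes and cDC2, Tlr7 in conventional DCs, Tlr2 in mature DCs, and Tlr7 and Tlr8 in neutrophil ranges have both levels under the bounds, so they are ratios of counts and not read as changes in expression. The same holds for every ratio past 2-fold in the cells with more than 5000 genes.

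Genes whose pattern was most like that of a member were ranked by Pearson's r of log2(CPM + 5) over 22 profiles (11 cell types or subtypes in 2 libraries), as a description over profiles that share libraries and depth. Tlr4 was most like Wdfy3 (r = 0.927), Plod1 (0.905), Tgm1 (0.894), Pilrb1 (0.885) and Cracr2b (0.882). Tlr3 was most like Fam149a (0.964), and Tlr11 was most like Fndc7 (0.946) and Xcr1 (0.935), a chemokine receptor used here as a cDC1 marker. The profile of Tlr8 was closest to that of Cebpb (0.931), Tlr7 to Tent5a (0.917), Tlr12 to P2ry14 (0.924), Tlr2 to Snap23 (0.899), Tlr13 to Ifngr2 (0.895) and Tlr9 to Kynu (0.889). Between members, r was 0.865 for Tlr2 with Tlr8, 0.852 for Tlr3 with Tlr11, 0.818 for Tlr2 with Tlr13 and 0.784 for Tlr2 with Tlr4, whereas it was -0.684 for Tlr4 with Tlr9. Since every Tlr9 level lies under the erythroid bounds, its values of r describe counts and were not read as expression.

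The question of the design, what differs in the SCD spleen, was addressed by the ratio of CPM between libraries within each of 5 cell types. A gene was counted as past 2-fold if it had at least 20 UMIs over both libraries and a ratio of at least 2 or at most 0.5. In neutrophils 6 members had enough UMIs, 3 of them were past 2-fold lower and 0 higher, while 17.0% of 11888 genes were past 2-fold lower and 6.97% higher. In monocytes 2 of 8 were lower and 0 higher (7.52% and 6.35% of genes). In conventional DCs 3 of 9 were higher and 1 lower (4.27% and 8.11% of genes). In plasmacytoid DCs 0 of 5 were past 2-fold (all genes 5.55% higher, 3.10% lower), and in red pulp macrophages 0 of 5 (all genes 3.81% higher, 9.14% lower). The median ratio of the members with enough UMIs was 0.453 in neutrophils against 0.901 for all genes, 0.719 against 0.937 in monocytes, 1.06 against 0.898 in conventional DCs, 0.783 against 1.01 in plasmacytoid DCs and 0.951 against 0.947 in red pulp macrophages. Scaling each class to its median gene ratio in place of its total would shift all log2 ratios of a class by a constant, of which the largest among these 5 was -0.21 in neutrophils.

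**Figure D2:**
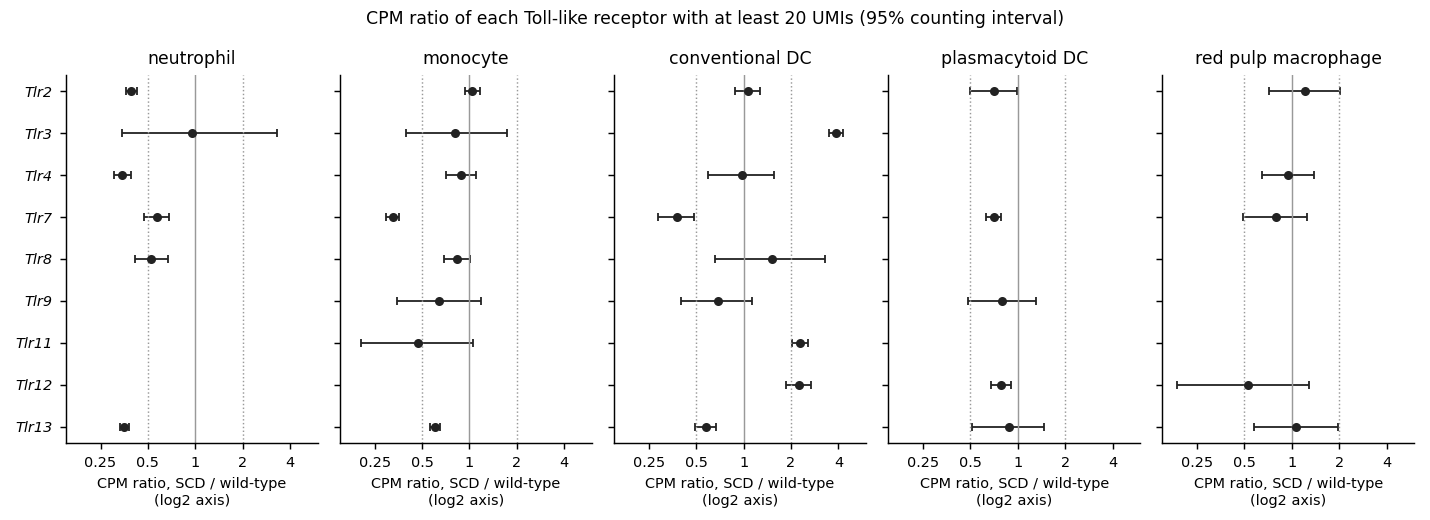
Ratio of SCD to wild-type CPM (log2 axis) with its exact conditional 95% interval for each receptor with at least 20 UMIs over both libraries, by cell type. The solid line marks a ratio of 1 and the dotted lines 0.5 and 2. Tlr2, Tlr4 and Tlr13 lie left of 0.5 in neutrophils, Tlr7 in monocytes and conventional DCs, and Tlr3, Tlr11 and Tlr12 lie right of 2 in conventional DCs.

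In neutrophils, Tlr2 stood at 62.7 CPM (1004 UMIs) in the wild-type and 24.5 CPM (1480 UMIs) in the SCD library, a ratio of 0.391 (0.360 to 0.424). Tlr4 stood at 28.4 CPM (454 UMIs) and 9.70 CPM (586 UMIs), a ratio of 0.342 (0.302 to 0.388). Tlr13 stood at 96.0 CPM (1536 UMIs) and 33.9 CPM (2047 UMIs), a ratio of 0.353 (0.331 to 0.378). Thus the 3 best-measured receptors of these cells were all lower in the SCD library by a similar factor, with SCD levels inside the erythroid background given above. Tlr7 (0.568, 0.473 to 0.685) was also lower without passing 2-fold, as was Tlr8 (0.525, 0.414 to 0.670), whose ratio turned to 1.12 when the stages of the cells were matched as below, and Tlr3 had 5 and 18 UMIs (ratio 0.954, 0.342 to 3.29). The other 3 members had fewer than 20 UMIs.

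The neutrophils of the libraries were not alike in stage. A list of 14 neutrophil stage transcripts took a median of 0.207% of the UMIs of a wild-type neutrophil and 6.93% of an SCD neutrophil. It holds granule genes made in developing neutrophils, such as Mpo, Elane, Ltf and Camp, and others that are not granule genes, such as Cebpe. The whole list is called granule transcripts here. Different clusters led the class as well, since cluster 0 (led by Il1b, Dusp1, Csf3r and Fos) held 82.0% of the wild-type neutrophils and cluster 1 (led by Ltf, Ly6g and Mmp8) was the largest in the SCD library with 20.2%. Neutrophils were therefore compared within 3 ranges of the granule share, which are ranges of a score and not cell types: under 2% (3803 wild-type and 2564 SCD cells), 2 to 10% (180 and 1637) and over 10% (389 and 2998). In the SCD library 1080 cells lay between 1 and 3% and 994 between 8 and 12%, near the limits.

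Tlr2, Tlr4 and Tlr13 were lowest in the cells richest in granule transcripts in both libraries. Tlr2 was at 15.1 CPM over 10%, 51.7 CPM between and 90.8 CPM under 2% in the wild-type library, and at 8.43, 33.9 and 78.8 CPM in the SCD library. Tlr13 was at 17.0, 75.0 and 143 CPM in the wild-type and at 11.4, 51.9 and 103 CPM in the SCD library. Tlr4 was at 8.23, 18.2 and 41.0 CPM in the wild-type and at 6.22, 9.91 and 24.2 CPM in the SCD library. Tlr8 shared this order in both libraries. Tlr7 had it in the wild-type library (6.50, 10.2 and 13.3 CPM) but not in the SCD library (6.59, 6.31 and 4.01 CPM). Over 10% the levels of Tlr2, Tlr4 and Tlr13 lie under the erythroid bounds in both libraries, as do the middle levels of Tlr4. The SCD middle levels of Tlr2 and Tlr13 and the SCD Tlr4 level under 2% do so too. None of these levels was read as expression.

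Within each range the ratios of Tlr2, Tlr4 and Tlr13 were closer to 1 than over all neutrophils. Under 2%, Tlr2 had a ratio of 0.868 (0.784 to 0.960), which turned to 1.11 with scaling to the median gene ratio, Tlr13 of 0.720 (0.661 to 0.783) and Tlr4 of 0.588 (0.496 to 0.697). Tlr7 was the 1 of 5 members past 2-fold lower there, with 13.3 CPM (125 UMIs) and 4.01 CPM (36 UMIs), a ratio of 0.301 (0.202 to 0.440), where 14.3% of genes were lower and 5.09% higher and the median ratio of all genes was 0.778. Both Tlr7 levels lie under the erythroid bounds, that call of Tlr7 was lost with 20 CPM added to both levels (0.721), and Tlr4 passed 2-fold there with at least 1000 genes per cell (0.483). In the middle range 1 of 5 (Tlr8, 12 and 55 UMIs, ratio 0.473, 0.2501 to 0.970) was past 2-fold lower against 3.13% of genes lower and 9.61% higher, a call lost under several alternatives, such as scaling to the median gene ratio (0.513). With granule limits of 1% and 5% Tlr4 (0.403) and Tlr7 (0.350) passed 2-fold lower in the middle range, and Tlr7 did so too with each library clustered on its own (0.375). Over 10%, 1 of 5 (Tlr8, 1 and 54 UMIs, ratio 7.41, 1.28 to 298) was past 2-fold higher against 3.60% higher and 2.53% lower, a ratio that rests on 1 wild-type UMI. Weighting the SCD ranges by the wild-type shares of UMIs gave ratios over all neutrophils of 0.828 for Tlr2, 0.602 for Tlr4, 0.715 for Tlr13, 0.467 for Tlr7 and 1.12 for Tlr8, so that none of Tlr2, Tlr4 and Tlr13 was then past 2-fold and Tlr7 was.

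**Figure D3:**
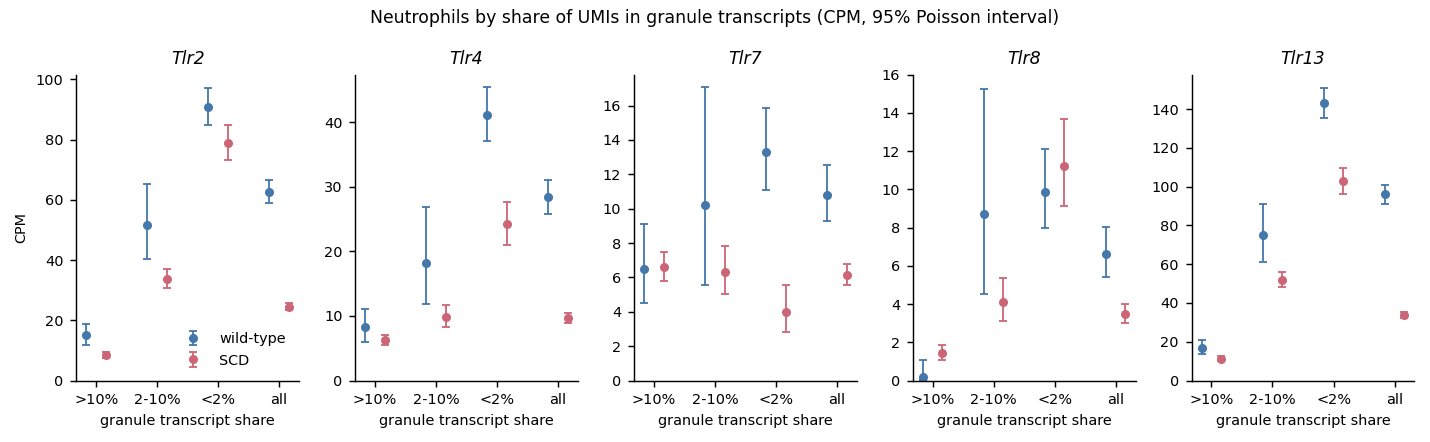
Level (CPM, exact Poisson 95% interval) of 5 receptors in neutrophils whose granule transcripts made up over 10%, 2 to 10% or under 2% of UMIs, and in all neutrophils, in the wild-type (blue) and SCD (red) library. Over all neutrophils the SCD points lie below the wild-type points, whereas under 2% the Tlr2 points are 90.8 and 78.8 CPM.

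A further match was given by cluster 0, to which 3586 wild-type and 311 SCD neutrophils belonged. Here Tlr2 was at 86.6 and 92.5 CPM (752 and 61 UMIs), a ratio of 1.07 (0.809 to 1.39). Tlr13 was at 144 and 149 CPM (1254 and 98 UMIs), a ratio of 1.03 (0.829 to 1.27). Tlr4 was at 42.6 and 30.3 CPM (370 and 20 UMIs), a ratio of 0.712 (0.430 to 1.12). These intervals all include 1, and the ratios of the whole class lie outside them. In cluster 4, with 142 and 1353 cells and led by Ifitm1 and Wfdc17, the Tlr7 ratio was 0.125 (10 and 14 UMIs, 0.0518 to 0.315). In cluster 0 it was 0.958 (110 and 8 UMIs, 0.403 to 1.95). Of 7 neutrophil clusters with at least 20 Tlr7 UMIs, 5 had a ratio below 1 and 1 had an interval below 1. Over all neutrophils both Tlr7 levels lie under the erythroid bounds. Over the neutrophil clusters with at least 20 Tlr2 UMIs, 6 of 8 had a Tlr2 ratio below 1 and 4 had an interval below 1. For Tlr4 these numbers were 7 and 0 of 9, and for Tlr13 they were 7 and 1 of 8.

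Stress and activation genes differed in the same direction. The summed level of 15 such genes, among them Il1b, Fos and Dusp1, was 5086 CPM in wild-type and 573.7 CPM in SCD neutrophils, and 8372 and 2331 CPM under 2% granule transcripts, with 0 of the 15 undetected. Il1b alone stood at 2034 and 165 CPM in all neutrophils. Median depth was 2453 and 6958 UMIs per neutrophil. The part of these in the receptor ratios was not tested.

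In monocytes, Tlr7 was past 2-fold lower with 113.5 CPM (1154 UMIs) in the wild-type and 36.9 CPM (695 UMIs) in the SCD library, a ratio of 0.325 (0.296 to 0.358). Tlr13 followed at 127 CPM (1295 UMIs) and 76.7 CPM (1445 UMIs), a ratio of 0.602 (0.558 to 0.650). By contrast Tlr2 was at 46.7 and 48.8 CPM (1.045, 0.934 to 1.17) and Tlr4 at 12.9 and 11.4 CPM (0.882, 0.706 to 1.11), and both intervals include 1. Tlr8 had a ratio of 0.836 (0.689 to 1.02) and Tlr9 of 0.638 (0.348 to 1.18). Tlr11 was counted as lower on 15 and 13 UMIs (0.468, 0.205 to 1.05), an interval that includes 1, and was within 2-fold under several alternatives, such as total count normalization for clustering (0.757).

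Monocyte subtypes differed in number between libraries. Classical monocytes numbered 589 and 928, non-classical monocytes 434 and 54, and a dividing cluster without a subtype name 43 and 360. Within classical monocytes Tlr7 was at 94.98 CPM (607 UMIs) and 49.1 CPM (565 UMIs), a ratio of 0.517 (0.460 to 0.581), the lowest of the 8 members measured there, and Tlr13 at 112 and 93.6 CPM, a ratio of 0.839 (0.763 to 0.924). Of the 8 members 0 were past 2-fold, against 3.51% of genes higher and 3.59% lower, but Tlr7 was past it when each cell was named by its own marker score (0.408) or each library was clustered on its own (0.427). Tlr11 and Tlr9, at levels under the erythroid bounds, also passed it under alternatives (lowest 0.386 and 0.491). Within non-classical monocytes the libraries did not differ in Tlr7 and Tlr13 beyond counting error (ratios given above), and Tlr2 was the 1 of 5 members past 2-fold higher (105 and 26 UMIs, 34.5 and 72.8 CPM, ratio 2.11, 1.32 to 3.27, against 4.67% of genes higher and 7.95% lower). That Tlr2 ratio was 1.18 when each cell was named by its own marker score, so the call depends on how the cells were named. Its wild-type level also lies under the erythroid bound, so that side cannot be told from background. Red pulp macrophage markers stood at 712 and 2778 CPM in these non-classical monocytes, with 1 and 6 of 12 markers undetected, and their part in the Tlr2 level was not tested. In the dividing cluster, led by Hist1h2ap and Top2a, Tlr7 was at 6.83 and 9.32 CPM, under both named subtypes. Weighted to the wild-type shares of subtypes, the monocyte ratio was 0.758 for Tlr7, 0.895 for Tlr13 and 1.29 for Tlr2. The stress and activation list stood at 1826 and 520.6 CPM in monocytes and at 1634 and 580.4 CPM in classical monocytes, and its part was not tested.

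In conventional DCs the direction was mixed. Tlr3 was at 31.4 CPM (717 UMIs) in the wild-type and 121 CPM (952 UMIs) in the SCD library, a ratio of 3.86 (3.50 to 4.26). Tlr11 was at 26.5 and 60.5 CPM (2.28, 2.02 to 2.58). Tlr12 was at 12.3 and 27.6 CPM (2.24, 1.86 to 2.68). These 3 receptors are the ones that were highest in cDC1, and cDC1 were 172 of 2645 wild-type and 247 of 721 SCD conventional DCs. The ratio of Tlr7 was below 1, at 22.6 and 8.52 CPM (0.377, 0.287 to 0.487), with both levels under the erythroid bounds, and it was within 2-fold with 20 CPM added (0.669), without the upper limit on genes per cell (0.505) and with weighted subtypes (0.579). Tlr13 was at 43.7 and 25.2 CPM (0.576, 0.492 to 0.672). Tlr2 (1.06, 0.878 to 1.27) and Tlr4 (0.982, 0.598 to 1.56) had intervals that include 1.

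Within cDC1 the 3 ratios were closer to 1, and the interval of Tlr12 lay below it. Tlr3 had a ratio of 1.12 (1.01 to 1.24), Tlr11 of 0.948 (0.823 to 1.09) and Tlr12 of 0.700 (0.574 to 0.852), and 0 of 6 members were past 2-fold against 4.20% of genes higher and 1.97% lower. The Tlr3 ratio moved past its interval, within 2-fold, under some alternatives. It was 1.269 without the upper limit on genes per cell and 1.35 without the mitochondrial and ribosomal limits. With each library clustered on its own it was 1.265. The neutrophil marker list stood at 2407 CPM in wild-type and 28980 CPM in SCD cDC1 with 1 and 0 of 16 genes undetected, and its part in the cDC1 ratios was not tested. Tlr2 was at 20.1 and 15.9 CPM and Tlr13 at 28.1 and 21.6 CPM in cDC1. Weighting the SCD subtypes by the wild-type shares of UMIs gave ratios over all conventional DCs of 1.08 for Tlr3, 0.709 for Tlr11 and 0.914 for Tlr12.

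In the other DC subtypes the Tlr11 ratio was below 1, at levels that in cDC2 of both libraries and in SCD mature DCs lie under the erythroid bounds. In cDC2 (1523 and 229 cells) Tlr11 was at 6.11 CPM (76 UMIs) and 1.71 CPM (3 UMIs), a ratio of 0.280 (0.0565 to 0.850), the 1 of 8 members past 2-fold lower against 4.07% of genes lower and 2.13% higher, and it was at 0.604 with 5 CPM added. In mature DCs (615 and 86 cells) it was at 31.5 CPM (121 UMIs) and 11.9 CPM (6 UMIs), a ratio of 0.379 (0.137 to 0.850). By cluster, Tlr11 had a ratio below 1 in all 5 conventional DC clusters with at least 20 of its UMIs, 4 of these were past 2-fold lower and 3 had an interval below 1, whereas the ratio over the whole class was 2.28. Mature DCs also had Tlr2 past 2-fold lower (89 and 5 UMIs, 0.430, 0.136 to 1.04) and Tlr12 past 2-fold higher (38 and 12 UMIs, 2.42, 1.15 to 4.72), that is 1 higher and 2 lower of 5 members against 4.64% and 9.79% of genes. With 5 CPM added these ratios of Tlr2 and Tlr12 were 0.531 and 1.94, within 2-fold. The mature DC ratio of Tlr11 was 0.464 with 5 CPM added and 0.620, within 2-fold, with 20 CPM added. Tlr7 in cDC2, which held most of the conventional DC UMIs of this gene in the wild-type library, was at 33.4 CPM (416 UMIs) and 17.7 CPM (31 UMIs), a ratio of 0.529 (0.355 to 0.762) that became 0.453 when each cell was named by its own marker score. Tlr13 in cDC2 was at 46.5 and 35.3 CPM (0.761, 0.576 to 0.990). The cDC2 ratio of Tlr2 (184 and 15 UMIs, 0.578, 0.317 to 0.979) turned to 1.72 when each cell was named by its own marker score and to 1.07 when each library was clustered on its own. A pair of clusters with 335 wild-type and 159 SCD conventional DCs had no subtype name because monocyte or neutrophil genes were among their leading genes, and 44.5% and 5.03% of their cells were called doublets.

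**Figure D4:**
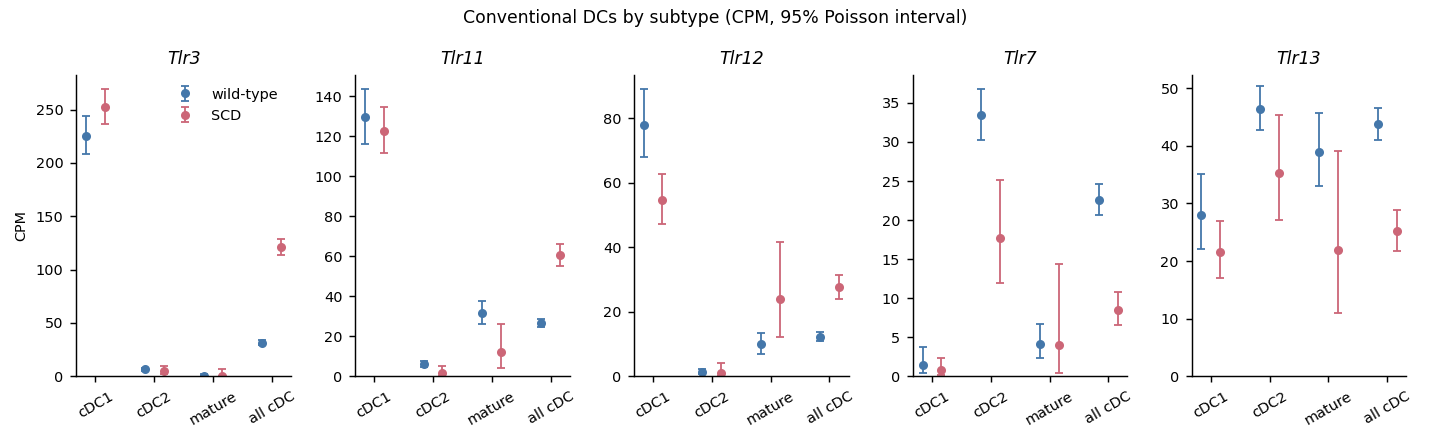
Level (CPM, exact Poisson 95% interval) of 5 receptors in cDC1, cDC2, mature DCs and all conventional DCs of the wild-type (blue) and SCD (red) library. Tlr3 stands at 226 and 253 CPM in cDC1 but at 31.4 and 121 CPM over all conventional DCs, and among these subtypes Tlr7 is highest in cDC2.

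In plasmacytoid DCs, the interferon-producing cells that rely on Tlr7 and Tlr9, Tlr7 was at 115 CPM (1069 UMIs) and 80.7 CPM (488 UMIs), a ratio of 0.703 (0.630 to 0.784). Tlr12 was at 56.8 and 44.5 CPM (0.783, 0.674 to 0.909). Both were lower by less than 2-fold, and nearer to 1 without the upper limit on genes per cell (0.922 for Tlr7 and 0.979 for Tlr12), without the mitochondrial and ribosomal limits (0.874 and 0.936) and with each library clustered on its own (0.861 and 0.9296). Tlr9 had 52 and 27 UMIs (0.7999, 0.483 to 1.30), Tlr2 111 and 51 UMIs (0.708, 0.498 to 0.995) and Tlr13 44 and 25 UMIs (0.875, 0.513 to 1.46). In the main plasmacytoid DC cluster (653 and 452 cells) the Tlr7 ratio was 0.874 (0.779 to 0.980) and that of Tlr12 0.920 (0.779 to 1.08). A second cluster (65 and 140 cells) had little Tlr7, at 3.72 and 13.45 CPM on 3 and 25 UMIs. Conventional DC markers stood at 16390 and 9067 CPM and dividing cell markers at 527.9 and 2615 CPM in the class, and called doublets made up 11.1% and 2.45% of it. Without the called doublets the Tlr7 ratio was 0.700 and that of Tlr13 was 2.25. The Tlr13 levels of this class lie under the erythroid bounds, so that ratio was not read as a change in expression.

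In red pulp macrophages the intervals of all 5 members with at least 20 UMIs included 1. Beside Tlr4 these were Tlr2 (57.3 and 69.1 CPM, 1.21, 0.713 to 2.02), Tlr7 (90.7 and 71.4 CPM, 0.788, 0.489 to 1.25), Tlr13 (44.6 and 47.6 CPM, 1.07, 0.571 to 1.97) and Tlr12 (20 and 7 UMIs, 0.524, 0.187 to 1.29). Tlr12 was past 2-fold lower under several alternatives, such as at least 1000 genes per cell (0.433) and each library clustered on its own (0.389). Under the latter the Tlr4 ratio was 0.688. Conventional DC markers stood at 10440 and 3215 CPM in this class, with 2 and 7 of 16 undetected, and stress and activation genes at 983.5 and 323.8 CPM, and their part was not tested. No Tlr9 UMI was found, which allows up to 4.77 and 7.14 CPM. In erythroid-like cells each member had between 0 and 9 UMIs and in B cell-like cells (21 and 287) between 0 and 14, too few to compare.

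To set depth aside, UMIs were also drawn at random from each cell down to 1000, without the cells that held fewer. Of 4327 wild-type neutrophils (45 left out) 11.5% and of 7187 SCD neutrophils (12 left out) 5.39% had a Tlr13 UMI, where the shares had been 27.3% and 22.5% without thinning. For Tlr4 in neutrophils the thinned shares were 4.11% and 1.43% (9.38% and 7.58% unthinned), and for Tlr2 they were 7.26% and 4.13% (16.5% and 16.6% unthinned). Tlr7 was found in 10.8% of wild-type and 3.58% of SCD monocytes (56.6% and 34.3% unthinned), with 5 and 2 cells left out. Tlr4 was found in 12.4% of 209 wild-type and 12.5% of 136 SCD red pulp macrophages (18.0% and 19.9% unthinned), with 80 and 20 left out. Erythroid-like cells, which should lack these receptors, had a thinned share of 1.82% (1 of 55) and 1.96% (1 of 51) for each of Tlr2, Tlr7 and Tlr13, with exact binomial intervals that reach 9.72% and 10.45%, and 0 cells for Tlr4, which allows up to 5.45% and 5.88%. Their median depth before thinning was 7747 and 2470 UMIs. The shares of Tlr2 and Tlr4 in neutrophils of both libraries, and the SCD shares of Tlr13 in neutrophils and Tlr7 in monocytes, lie within what so few erythroid cells allow, so these shares alone were not read as expression. The shares of Tlr4 in red pulp macrophages and the wild-type shares of Tlr13 and Tlr7 lie above those limits.

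The other genes of the pathway were described with a list of 81 genes grouped by role, all of which are in the files. In neutrophils 2 of 78 genes with enough UMIs were past 2-fold higher and 25 lower, with a median ratio of 0.602. In monocytes these numbers were 2 and 12 of 79 (median 0.798), in conventional DCs 4 and 8 of 79 (0.843), in plasmacytoid DCs 2 and 4 of 76 (0.844) and in red pulp macrophages 1 and 8 of 63 (0.889). These counts stand against the shares of all genes given before, which for lower genes were 17.0%, 7.52%, 8.11%, 3.10% and 9.14% in this order. The list was written with earlier results of these data known, so its counts are a description. Since the neutrophils differed in stage, the list was also counted within the granule ranges. Under 2% 0 of 76 genes were past 2-fold higher and 17 lower, with a median of 0.675 (all genes 5.09% higher, 14.3% lower, median 0.778). At 2 to 10% these were 5 and 3 of 76 and 0.93 (all genes 9.61% and 3.13%, 1.02), and over 10% 1 and 1 of 76 and 0.891 (3.60% and 2.53%, 0.953). Within conventional DCs, list genes past 2-fold lower were Ube2v1 and Socs3 in cDC1 and Cd36, Map3k8 and Ube2v1 in cDC2. In mature DCs they were Tlr1, Cd180, Ticam2 and Cd300a. Higher were Itgam and Il1rn in cDC1, Irak3 and Socs3 in cDC2, and Cnpy4, Tbk1, Tnip3 and Lilrb4a in mature DCs. The intervals included 1 for Socs3 and Il1rn in cDC1, for Cd36, Ube2v1 and Irak3 in cDC2 and for Lilrb4a in mature DCs. Cd36 in cDC2 had 30 and 1 UMIs, and Cd300a in mature DCs 89 and 2. The part of the neutrophil markers of SCD cDC1, given above, in the Itgam and Il1rn ratios was not tested. The shares of all genes in these subtypes are given above.

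By role, 5 of 9 surface co-receptors were lower and 1 higher over all neutrophils. The counts by role stand against 17.0% of all genes lower and 6.97% higher in neutrophils. In monocytes these shares were 7.52% and 6.35%. Cd14, which hands lipopolysaccharide to Tlr4, was at 41.4 and 13.1 CPM (0.317, 0.286 to 0.352), and Ly96, the partner of Tlr4, at 37.7 and 15.05 CPM (0.400, 0.360 to 0.444). Lbp, a lipopolysaccharide binding protein, was at 34.1 and 74.0 CPM (2.17, 1.99 to 2.38), and over all monocytes at 5.80 and 25.4 CPM (4.37, 3.33 to 5.84). Monocyte subtypes differed in number between the libraries, and no background level is given for Lbp. The part of either in the monocyte ratio of Lbp was not tested. Within the granule ranges these neutrophil ratios changed. Cd14 was past 2-fold lower under 2% granule transcripts (0.465, 0.403 to 0.536), at 1.66 (0.852 to 3.71) in the middle range and past 2-fold higher over 10% (14 and 363 UMIs, 3.56, 2.09 to 6.58). Ly96 had ratios of 0.951 (0.840 to 1.08), 0.586 (0.419 to 0.838) and 1.07 (0.697 to 1.71) in the same order, and Lbp of 1.20, 1.21 and 1.13, so neither was past 2-fold in any range. In monocytes Cd14 was at 21.6 and 29.6 CPM (1.37, 1.17 to 1.61) and Ly96 at 52.6 and 53.0 CPM (1.01, 0.907 to 1.12). Cd14 was past 2-fold higher in conventional DCs (65 and 56 UMIs, 2.50, 1.72 to 3.64) and plasmacytoid DCs (47 and 117 UMIs, 3.83, 2.71 to 5.50). Its levels were low, at 2.84 and 7.12 CPM in conventional DCs and 5.04 and 19.3 CPM in plasmacytoid DCs. No background level is given for Cd14, so these ratios were not read as changes in expression. Of its conventional DC UMIs, cDC1 held 1 and 16, cDC2 12 and 1 and mature DCs 2 and 1, and the rest were in the clusters without a subtype name described above. In red pulp macrophages it was at 132 and 105 CPM (0.793, 0.537 to 1.16) and Ly96 at 71.6 and 83.3 CPM (1.16, 0.726 to 1.85).

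Tlr6, a Tlr2 partner, was at 48.2 and 12.6 CPM in neutrophils (0.261, 0.236 to 0.289), and Tlr1 was at 1.37 and 0.513 CPM (0.374, 0.209 to 0.677). Under 2%, at 2 to 10% and over 10% granule transcripts the Tlr6 ratio was 0.509 (0.446 to 0.579), 0.795 (0.518 to 1.27) and 0.974 (0.671 to 1.46), past 2-fold in none. Tlr1 was past 2-fold lower under 2% on 19 and 7 UMIs (0.386, 0.137 to 0.958). Erythroid-like cells held 7 wild-type and 0 SCD Tlr1 UMIs, so the neutrophil levels of Tlr1 cannot be told from background. Tlr5, the flagellin receptor, was at 5.69 and 5.08 CPM in neutrophils (0.894, 0.706 to 1.14). Erythroid-like cells held 4 wild-type and 0 SCD Tlr6 UMIs, and 0 Tlr5 UMIs in either library. Both Tlr5 levels and the SCD Tlr6 level over all neutrophils therefore cannot be told from background. The same holds for the Tlr6 levels at 2 to 10% and over 10% in both libraries. In conventional DCs Tlr1 was at 63.7 and 26.8 CPM (0.421, 0.363 to 0.487), and its ratio was 0.874 (0.704 to 1.07) in cDC2 and 0.876 (0.362 to 2.16) in cDC1. In mature DCs it was at 119 and 53.7 CPM on 457 and 27 UMIs and past 2-fold lower (0.452, 0.295 to 0.666).

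Of the 16 measured chaperones, traffic and processing genes, 5 were past 2-fold lower in neutrophils, 1 in monocytes and 0 in conventional DCs, plasmacytoid DCs or red pulp macrophages (where 15 were measured). Unc93b1 was at 191 and 80.4 CPM in neutrophils (0.422, 0.403 to 0.441), against 375 and 384 CPM in monocytes (1.03, 0.985 to 1.07) and 645 and 587 CPM in plasmacytoid DCs (0.909, 0.872 to 0.948). Ctss, a cathepsin, was at 48.9 and 11.2 CPM in neutrophils (0.230, 0.207 to 0.255). Under 2%, at 2 to 10% and over 10% granule transcripts the ratio was 0.5085, 0.912 and 0.925 for Unc93b1, past 2-fold in none, and 0.436, 0.527 and 0.871 for Ctss, past it under 2%. Ctsl was past 2-fold higher over all monocytes, at 25.5 and 54.6 CPM (2.15, 1.87 to 2.47). The part of the monocyte subtypes in this ratio was not tested. Of 5 measured adaptors 1 was lower in neutrophils, namely Myd88 with 138 and 48.4 CPM (0.350, 0.331 to 0.370), while Ticam1, the adaptor of Tlr3, had a ratio of 1.15 (0.869 to 1.55). Myd88 was past 2-fold in none of the granule ranges, with 0.5635, 0.921 and 0.941 in the same order. In monocytes Myd88 had a ratio of 0.952 (0.873 to 1.04) and in conventional DCs of 1.10 (0.985 to 1.23).

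In neutrophils 4 of 9 factors and 6 of 16 inhibitors were past 2-fold lower, against 17.0% of all genes. Among them were Irf5 at 20.8 and 5.81 CPM (0.279, 0.240 to 0.326), Irf7 at 48.2 and 18.9 CPM (0.393, 0.358 to 0.431), and Socs3, a cytokine signalling inhibitor, at 97.5 and 7.22 CPM (0.0740, 0.0664 to 0.0824). Under 2%, at 2 to 10% and over 10% granule transcripts Irf5 had ratios of 0.643, 0.791 and 0.934 and Irf7 of 0.7225, 0.6305 and 0.879, past 2-fold in none. Socs3 was past it under 2% (0.2497) and over 10% (0.0981, on 21 and 15 UMIs) and at 0.945 between, on 6 and 55 UMIs. Sigirr, a receptor that dampens Toll-like receptor signalling, was past 2-fold higher over all neutrophils on 7 and 94 UMIs (3.56, 1.66 to 9.10), at 2.58 in the middle range on 1 and 25 UMIs and at 1.84 over 10%. Over all monocytes 2 of 9 factors and 5 of 17 inhibitors were lower, against 7.52% of all genes. The part of the monocyte subtypes in these counts was not tested. Tnfaip3, a deubiquitinase that limits NF-kB, had a ratio of 0.333 (0.272 to 0.406) in monocytes, 0.380 (0.329 to 0.437) in conventional DCs, 0.416 (0.358 to 0.482) in neutrophils and 0.587 (0.483 to 0.711) in plasmacytoid DCs. Its ratio was within 2-fold in each named DC subtype, at 0.610 in cDC1, 0.501 in cDC2 and 0.822 in mature DCs, and it was 0.413 in classical and 1.58 in non-classical monocytes. In neutrophils it was 0.352 under 2%, 1.48 at 2 to 10% and 0.891 over 10% granule transcripts. In conventional DCs Irf8 was past 2-fold higher, at 323 and 1004 CPM (3.11, 3.01 to 3.21), and it is one of the cDC1 markers used for naming. Its ratio was 0.931 in cDC1, 1.18 in cDC2 and 1.80 in mature DCs. Irak3, an inhibitory kinase, was within 2-fold in all 5 classes, with 0.889 (0.825 to 0.959) in neutrophils and 1.83 (1.34 to 2.48) in conventional DCs. Within cDC2 it was past 2-fold higher on 16 and 6 UMIs (2.66, 0.852 to 7.16), an interval that includes 1. Of 20 kinases and ubiquitin ligases 2 were lower in neutrophils and 1 in monocytes, and Ikbke had a ratio of 1.92 in neutrophils (0.761 under 2% granule transcripts, on 22 and 16 UMIs) and 1.81 in monocytes.

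**Figure D5:**
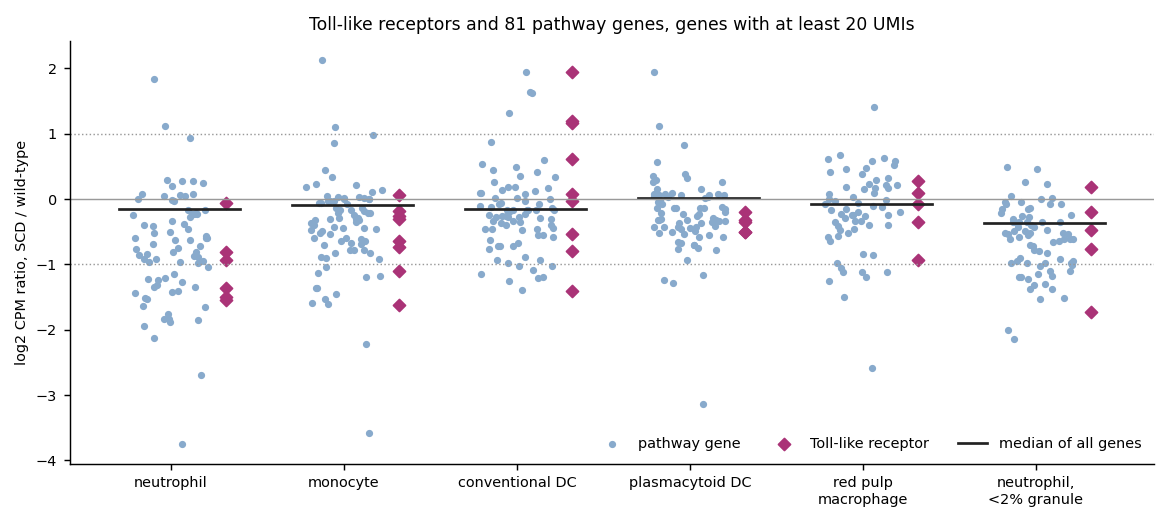
Log2 ratio of SCD to wild-type CPM for the genes of the 81-gene pathway list (blue points) and for the members (purple diamonds) with at least 20 UMIs, by class, with the median over all genes (black bar) and dotted lines at 2-fold. Points are spread sideways for legibility. The pathway median lies at a ratio of 0.602 in neutrophils and 0.889 in red pulp macrophages.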

How the data were processed

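Spleen cells enriched for dendritic cells from 1 wild-type and 1 SCD mouse were profiled with 10x Chromium 3′ chemistry. The authors deposited raw UMI counts per gene and cell, and the submitters' processing notes name Cell Ranger 4.0.0 and the build GRCm38.p6. No column of per-sample values was left unused (0). The files hold 97880318 and 189688217 UMIs in 10845 and 13447 cells, with a median of 4991 and 8596, and 88 barcodes occur in both libraries. Cells with 500 to 5000 genes, under 15% mitochondrial and under 30% ribosomal UMIs were kept. Counts were normalized with scran 1.30.0 (R 4.3.3) and clustered with scanpy 1.11.5 and leidenalg 0.10.2 (2007 variable genes, receptors left out, 30 components, 15 neighbours, resolution 1), which gave 26 clusters. Clusters were named from marker lists, and the rebuilt names may differ from those of the study. The level at which subtypes were named was chosen after sub-clusters had been seen. Scrublet called 3.80% of wild-type and 1.84% of SCD kept cells as doublets, and these were kept.

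For each class, raw UMIs were summed per library and given as UMIs per 1000000 (CPM) with exact Poisson 95% intervals. The ratio of CPM has the exact conditional interval (scipy 1.17.1), shares have exact binomial intervals, and a count of 0 was bounded at 3 counts. The erythroid upper bounds of CPM are instead the upper ends of the exact Poisson intervals, also where the count was 0. All intervals cover counting error only. With 1 library per group no test across samples was made, and a gene was counted as past 2-fold if it had at least 20 UMIs and a ratio of at least 2 or at most 0.5. Calls and ratios were checked on simulated counts. Named genes were the 9 receptors, 12 pathway genes given in every class, the 3 highest and 3 lowest pathway genes per class with at least 100 UMIs, and the genes most like each receptor; not all of them are printed, and Tlr4 has 5 like genes. Members, gene lists and rules were chosen with earlier results of these data known. Alternatives covered pseudocount, scaling, doublets, cell filters, clustering, naming, minimum UMIs, thinning and granule limits.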

Additional observations from a re-analysis of the deposited data

Results flagged for a closer look

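The ratio of SCD to wild-type CPM of Tlr11 lay on opposite sides of 2-fold in a pair of cell types. It was 0.468 in monocytes (15 and 13 UMIs, interval 0.205 to 1.05) and 2.28 in conventional DCs (606 and 476 UMIs, interval 2.02 to 2.58). With 1 library per group the difference between the cell types was not tested. Within the named DC subtypes the Tlr11 ratio was 0.948 in cDC1, 0.280 in cDC2 and 0.379 in mature DCs. The Tlr11 levels of monocytes and cDC2 lie under the erythroid bounds given above.

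Ratios past 2-fold were also found in the cells with more than 5000 genes, which the comparisons left out. There Tlr8 was at 0.536 CPM in 295 wild-type cells (10 UMIs) and at 1.34 CPM in 1220 SCD cells (97 UMIs), a ratio of 2.50 (1.30 to 5.38). In the same cells Tlr3 (0.227), Tlr7 (0.453), Tlr11 (0.201) and Tlr12 (0.242) were past 2-fold lower, and Tlr2 (1.225), Tlr4 (1.70) and Tlr13 (1.09) were within 2-fold. The levels of every member in these cells lie under the erythroid bounds given above. Their ratios are thus ratios of counts and were not read as changes in expression. The makeup of these cells by type was not compared.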

How the results depend on the processing

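No paired analysis was possible because there was 1 mouse, and so 1 library, on either side. Of 889 CPM ratios recomputed under the alternatives, 800 moved by less than their counting interval, 87 moved more, and 2 that had been past 2-fold ended on the other side of 1. The direction turned, that is a ratio crossed 1, in 52 of them. In 46 of these the reported interval included 1, and the other 6 are Tlr11 and Tlr12 in conventional DCs (below) and 4 given beside Tlr2 in neutrophils under 2% granule transcripts, Tlr2 in cDC2 and Tlr8 in neutrophils. Of 52 counts 46 stayed within 1.5 times, and of 132 shares of cells 18 stayed within their interval. The cause of a shift was not tested unless the construction of the alternative gives it. A pseudocount draws the ratios of low genes towards 1. With 20 CPM added, the neutrophil ratios were 0.538 for Tlr2, 0.614 for Tlr4 and 0.465 for Tlr13, that of Tlr7 in monocytes was 0.426, and those in conventional DCs were 2.75 for Tlr3, 0.669 for Tlr7, 1.73 for Tlr11 and 1.47 for Tlr12. Members past 2-fold over the 5 cell types were then 1 higher and 2 lower in place of 3 and 6, and pathway genes 2 higher and 19 lower in place of 11 and 57. With 5 CPM added, Tlr2, Tlr4 and Tlr13 in neutrophils were at 0.436, 0.441 and 0.385, Tlr3, Tlr7 and Tlr12 in conventional DCs at 3.47, 0.489 and 1.88, and 6 pathway genes were higher. With median-of-ratios scaling the neutrophil ratios were 0.452, 0.396 and 0.409 for Tlr2, Tlr4 and Tlr13. With at least 1000 genes per cell Tlr13 in neutrophils was at 0.382. Without called doublets 5 members were higher, the added ones being Tlr13 in plasmacytoid DCs (2.25) and Tlr8 in conventional DCs (2.25). The levels of these genes in these classes lie under the erythroid bounds. Without an upper limit on genes Tlr3, Tlr7 and Tlr12 in conventional DCs were at 3.23, 0.505 and 1.91, and without mitochondrial and ribosomal limits Tlr7 was at 0.492 in conventional DCs and 0.409 in monocytes. With each library clustered on its own, conventional DC ratios were 4.64 for Tlr3, 2.63 for Tlr11 and 2.79 for Tlr12, and Tlr7 in monocytes was at 0.290. A further pair of alternatives was chosen after seeing the data. Without the clusters that had no subtype name, Tlr3, Tlr7 and Tlr11 in conventional DCs were at 4.28, 0.264 and 2.68 and Tlr7 in monocytes at 0.436. With SCD subtypes weighted as in the wild-type library, Tlr11 (0.709) and Tlr12 (0.914) in conventional DCs reversed, Tlr3 and Tlr7 there were at 1.08 and 0.579, Tlr2, Tlr4 and Tlr13 in neutrophils at 0.828, 0.602 and 0.715, and Tlr7 in monocytes at 0.758. Depth limits Tlr9 everywhere and every member in red pulp macrophages.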
